A study of Mus musculus with 4 samples.

Results

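Collagen genes were taken as every row of the deposited count table whose symbol is Col, a number, a and a number, which gave 43 of 38087 genes. They comprised 11 fibrillar collagens, 6 basement membrane collagens and 26 others. Total RNA depleted of ribosomal RNA was sequenced in bulk on an Ion Torrent instrument from 4 samples of C57BL/6 mice at postnatal week 20. The 2 Becn1-M-KO samples (KO) came from mice with a myeloid-specific deletion of Becn1, the gene of the autophagy protein Beclin-1; the series describes them as B cell lymphomas, while their source name is cervical lymph node. The 2 WT samples were labelled cervical lymph nodes of wild-type mice. Genotype and tumour cannot be told apart, and the driver of the myeloid deletion was not stated in the labels. Whether the samples are from separate animals is not stated, so the p-values cover just the spread among these 4 samples and that spread may be technical.

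Collagens are secreted or membrane-bound proteins in which 3 chains wind into a triple helix. Fibrillar collagens assemble into the cross-striated fibrils of connective tissue, whereas type IV collagen forms the sheet-like network of basement membranes. The remaining types coat fibrils, form beaded filaments, anchor epithelium to the tissue below it, or span the cell membrane. In a lymph node, reticular fibres of type I and type III collagen sheathed in basement membrane proteins carry the conduit network along which fibroblastic reticular cells lie.

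Library totals were 15604247 and 20067004 reads in KO and 16141605 and 17874699 reads in WT. For a gene at 0 reads the upper limit is 3 reads, which is 0.149 to 0.192 CPM (counts per 1e6 reads) of the library total. Becn1 had 984 and 1384 reads in KO and 454 and 1330 reads in WT; a myeloid deletion removes it from part of the cells, so this checks the labels little. The label of WT replicate 1 went against its markers, and in WT replicate 2 the salivary markers also summed far above KO. The 5 B cell markers summed to 1657 and 1571 CPM of the library total in KO, against 4.58 CPM in WT replicate 1 and 1125 CPM in WT replicate 2. The 8 salivary secretory markers summed to 130 and 4107 CPM of the library total in KO, against 413500 and 114000 CPM in WT. All levels in CPM after these are scaled by TMM, a factor that sets most genes level between libraries, and the factor of WT replicate 1 was 0.514 against 1.18 to 1.30 in the others. KO was compared with the 2 WT libraries together and with each alone. With 1 WT library, the spread is that of the KO pair and the lone WT library is assumed to vary like it. Log2 levels across genes correlated at 0.988 between the KO libraries and at 0.857 between the WT libraries. The WT pair thus varied more than assumed, and the p-values and SEs of these comparisons are too small for KO against WT. These comparisons also share the KO libraries. Xist, the RNA that silences one X chromosome in female cells, was counted at 3 and 34 reads in KO and 2088 and 5314 reads in WT, so sex cannot be told apart from genotype either.

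Collagen mRNA was a larger share of the reads in KO. Collagen genes held 19179 and 19563 reads in KO, or 0.123% (95% Wilson interval 0.121 to 0.125) and 0.0975% (0.0961 to 0.0989) of the library. They held 7545 and 10626 reads in WT, or 0.0467% (0.0457 to 0.0478) and 0.0594% (0.0583 to 0.0606). Both KO libraries lay above both WT libraries, a position that 51% of all genes tested held on this scale, with 15% below both. On the TMM scale the sums were 965 and 754 CPM in KO and 911 and 507 CPM in WT, so the groups overlapped on that scale. Intervals cover counting error only, and in bulk tissue fewer cells of a type and less RNA per cell cannot be told apart. With TMM scaling, the type I genes Col1a1 and Col1a2 rose against each WT library, as did Col5a2, Col4a2, Col6a1, Col6a3 and Col6a4. Col17a1, Col7a1, Col4a5, Col20a1, Col14a1 and Col27a1 fell against each. With library totals alone, Col14a1 and Col27a1 changed sign against WT replicate 1. The share of all genes that moved the same way against each WT library was not counted, and both comparisons use the same KO libraries.

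Tested over the 4 libraries, 1 of 40 collagens was called at an adjusted p under 0.05, and it was lower in KO. Of all 20695 genes tested, 1.04% were called higher and 2.18% lower. Adjusted p-values are from edgeR's quasi-likelihood test with Benjamini-Hochberg adjustment over all genes tested. At an unadjusted p under 0.05, 4 collagens were higher and 6 lower, which is 10 of 40 beside 26.9% of all genes in either direction. DESeq2 called 2 higher (Col1a2 and Col5a2) and 5 lower (Col4a5, Col7a1, Col11a1, Col17a1 and Col20a1), beside 6.4% and 11.7% of all genes. Limma-voom called 0 higher and 1 lower, beside 1.21% and 1.95% of all genes. The median log2 fold change was -0.30 over the 40 collagens and 0.01 over all genes. Col2a1, Col9a2 and Col10a1 had too few reads to be tested.

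Against WT replicate 2, 12 of 42 collagens rose in KO and 8 fell, beside 20.9% of all genes called higher and 22.8% called lower. Against WT replicate 1, 9 of 39 rose and 16 fell, beside 32.3% and 32.5% of all genes; scaled by library totals alone, the split turned to 22 higher and 5 lower, beside 70.8% and 12.2% of all genes. As shares of the collagens tested, these are 28.6% higher and 19.0% lower against WT replicate 2, and 23.1% higher and 41.0% lower against WT replicate 1. Against WT replicate 2, DESeq2 left Col4a1, Col4a2, Col5a3, Col11a2 and Col14a1 uncalled. Against WT replicate 1 it left Col4a2, Col4a4, Col4a6, Col6a1, Col11a2, Col14a1, Col16a1, Col27a1 and Col28a1 uncalled. In both comparisons it also called fewer of all genes than edgeR, so these losses are not particular to the collagens. The median log2 fold change was 0.26 against WT replicate 2 and -0.41 against WT replicate 1, where the medians of all genes were 0.00 and 0.06. Scaling by library totals alone moved the median of all genes to 0.60 over the 4 libraries, 0.13 against WT replicate 2 and 1.39 against WT replicate 1. It turned the sign of 11 of 40, 1 of 42 and 15 of 39 collagens in these comparisons, and the collagen median over the 4 libraries became 0.37.

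**Figure D1:**
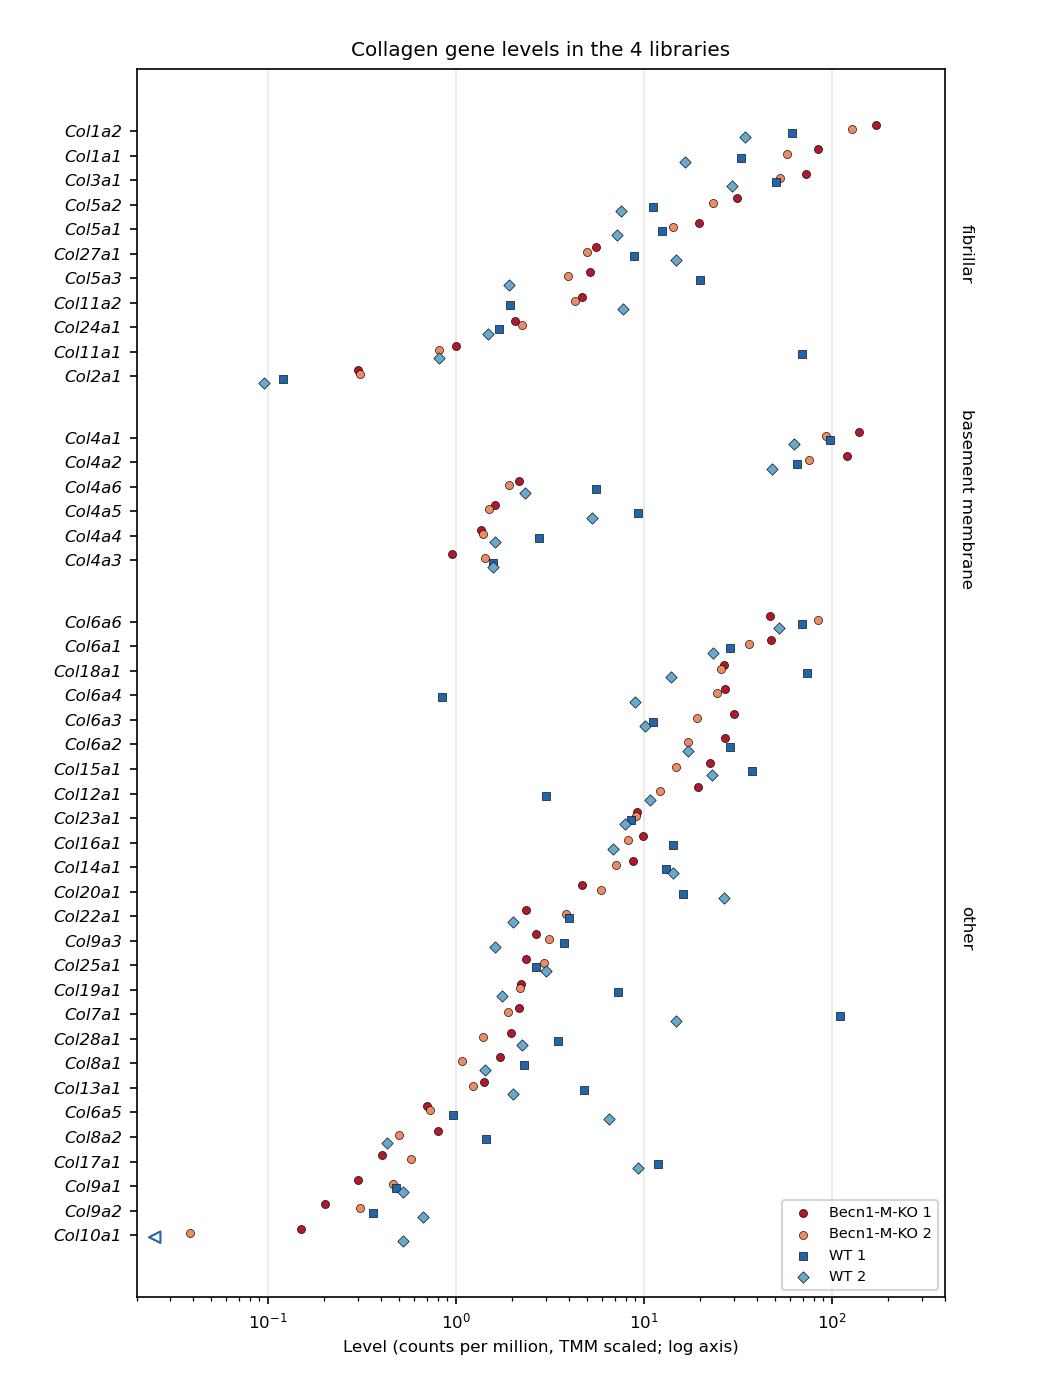
Level of each of the 43 collagen genes in each library (CPM, TMM scaled, log axis), with genes grouped as fibrillar, basement membrane and other and ordered by their KO mean. Circles are the KO libraries, the square is WT replicate 1 and the diamond WT replicate 2; the open triangle marks Col10a1 at 0 reads in WT replicate 1. Col1a2, Col1a1 and Col5a2 lie higher in both KO libraries than in either WT library, and Col7a1, Col17a1, Col4a5 and Col20a1 lie lower.

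Of the fibrillar collagens, Col1a1, Col1a2 and Col5a2 were higher in KO than in each WT library. Of 10 fibrillar genes tested, 6 rose and 2 fell against WT replicate 2, or 60% and 20%, beside 20.9% and 22.8% of all genes, with a median log2 fold change of 1.17. Against WT replicate 1, 4 rose and 3 fell, or 40% and 30%, near the 32.3% and 32.5% of all genes, with a median of 0.37. Over the 4 libraries 0 of 10 were called, 3 were higher and 1 lower at an unadjusted p under 0.05, DESeq2 called 2 higher and 1 lower, and the median was 0.55. Levels in KO lay above both WT libraries for 7 of the 11 fibrillar genes, a position held by 34.3% of all genes tested. Over all 43 collagens it was held by 13, and 15 lay below both WT libraries, as did 33.3% of all genes tested. The 7 and the 13 include Col2a1, and the 15 include Col9a2. Both had too few reads to be tested.

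Col1a1 and Col1a2 encode the chains of type I collagen, the main collagen of most connective tissue. Col1a1 (chr11:94936224-94953042, mm10) was at 84.2 and 57.7 CPM in KO, against 33.0 CPM in WT replicate 1 and 16.6 CPM in WT replicate 2. It rose by a log2 fold change of 2.09 (SE 0.20, adjusted p 4.17e-06) against WT replicate 2 and 1.09 (SE 0.20, adjusted p 0.000315) against WT replicate 1. Col1a2 (chr6:4504814-4541543) was at 171 and 128 CPM in KO, against 61.2 and 34.6 CPM in WT. Both genes were thus lowest in WT replicate 2, and no KO library overlapped a WT library. Col1a2 rose by 2.12 (SE 0.17, adjusted p 1.03e-06) and 1.27 (SE 0.17, adjusted p 1.55e-05) against WT replicates 2 and 1. Over the 4 libraries the changes were 1.52 (SE 0.44, adjusted p 0.137) for Col1a1 and 1.65 (SE 0.40, adjusted p 0.104) for Col1a2.

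Col3a1 encodes type III collagen, which forms thin fibrils with type I collagen in reticular fibres. Its level was 73.0 and 53.3 CPM in KO, against 50.6 and 29.6 CPM in WT. WT replicate 1 came close to the lower KO library. Col3a1 rose against WT replicate 2 (1.10, SE 0.16, adjusted p 0.000181) and missed the threshold against WT replicate 1 (0.30, SE 0.17, adjusted p 0.131). The change over the 4 libraries was 0.66 (SE 0.37, adjusted p 0.322).

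Type V collagen is a minor chain set that sits inside type I fibrils and limits their diameter. Col5a2 was at 31.3 and 23.4 CPM in KO, against 11.2 and 7.58 CPM in WT, and rose against both WT libraries (1.85, SE 0.19, adjusted p 9.73e-06; 1.26, SE 0.21, adjusted p 0.000151). Col5a1 was at 19.7 and 14.3 CPM in KO, against 12.6 and 7.16 CPM in WT. The KO levels of both genes lay above both WT libraries, more widely so for Col5a2. Col5a1 rose against WT replicate 2 (1.25, SE 0.21, adjusted p 0.000403) and had an adjusted p of 0.112 against WT replicate 1. Changes over the 4 libraries were 1.55 (SE 0.32, adjusted p 0.0837) for Col5a2 and 0.80 (SE 0.39, adjusted p 0.278) for Col5a1.

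The other fibrillar genes had a different order in the 2 WT libraries. Col11a1, a type XI chain best known from cartilage, was at 1.01 and 0.809 CPM in KO, against 69.6 CPM in WT replicate 1 and 0.811 CPM in WT replicate 2. It fell by 6.28 on the log2 scale (SE 0.17, adjusted p 5.40e-12) against WT replicate 1 and was not called against WT replicate 2 (0.15, SE 0.50). Col5a3, the third type V chain gene, was at 5.18 and 3.93 CPM in KO, against 19.8 and 1.91 CPM in WT; it fell against replicate 1 (-2.15, SE 0.21) and rose against replicate 2 (1.25, SE 0.31). Col11a2 had the reverse order, at 4.68 and 4.28 CPM in KO and 1.93 and 7.73 CPM in WT. The KO level of these 3 genes was far from at least 1 WT library, and for Col5a3 and Col11a2 the direction turned with the WT library used. Col27a1, a minor fibrillar collagen, was at 5.58 and 5.01 CPM in KO, against 8.82 and 14.7 CPM in WT. It fell against WT replicate 2 (-1.48, SE 0.18) and against WT replicate 1 (-0.75, SE 0.24), but with library totals alone the change against replicate 1 was 0.58. Col24a1, also a minor fibrillar collagen, was at 2.06 and 2.23 CPM in KO, against 1.69 and 1.48 CPM in WT, and was not called in any comparison. The cartilage and bone markers Acan, Sox9, Runx2, Bglap, Bglap2 and Ibsp summed to 20.9 and 19.8 CPM in KO, against 209 and 78.2 CPM in WT; their part in these values was not tested.

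The DNA before 2 of these genes is shown because Col3a1 and Col5a1 both rose against WT replicate 2 and their windows differ in base composition. Each is the 250 bases upstream of the RefSeq transcription start on GRCm38.p6, read 5′ to 3′ on the gene's strand. Capitals mark the letters TATAAA, known as the TATA box, the letters GGGCGG, known as the GC box, or the letters CCAAT, known as the CCAAT box. Both strands were searched, and no marked motifs overlap. The first is Col3a1 (chr1:45311288-45311537, plus strand) and the second Col5a1 (chr2:27886175-27886424, plus strand).
Col3a1: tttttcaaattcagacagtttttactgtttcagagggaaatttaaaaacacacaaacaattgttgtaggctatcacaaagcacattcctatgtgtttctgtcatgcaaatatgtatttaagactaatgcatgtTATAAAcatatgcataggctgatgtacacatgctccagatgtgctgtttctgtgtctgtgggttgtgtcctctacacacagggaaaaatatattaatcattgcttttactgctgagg
Col5a1: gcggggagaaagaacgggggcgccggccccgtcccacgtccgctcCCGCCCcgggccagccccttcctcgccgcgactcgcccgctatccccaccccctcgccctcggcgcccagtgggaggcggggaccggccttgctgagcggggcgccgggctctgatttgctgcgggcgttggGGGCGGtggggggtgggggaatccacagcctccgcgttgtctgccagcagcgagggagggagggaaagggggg
The Col3a1 window holds 1 TATA box and is 35.2% G or C, whereas the Col5a1 window holds 2 GC boxes and is 76.4% G or C. Windows of this kind were found for 35 collagen genes, 38 windows in all, of which 13 hold a CCAAT box, 5 a TATA box and 22 a GC box. Among 32851 RefSeq promoters of the same length the shares are 33.8%, 12.4% and 32.7%. A match is only a match of letters.

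Basement membrane collagens split into a major pair and 4 minor genes. Of 6 genes tested, 2 rose and 1 fell against WT replicate 2, beside 20.9% and 22.8% of all genes. Against WT replicate 1, 1 rose and 3 fell, beside 32.3% and 32.5%, so with 6 genes these counts lie near the background. Over the 4 libraries 0 of 6 were called, with 1 lower at an unadjusted p under 0.05, 1 called lower by DESeq2 and a median log2 fold change of -0.52.

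Col4a1 and Col4a2 encode the chains of the type IV network found in nearly all basement membranes, and they are transcribed in opposite directions from starts that overlap by 22 bases (chr8:11312805-11312826). Col4a1 was at 139 and 93.0 CPM in KO, against 97.2 and 63.3 CPM in WT. Col4a2 was at 121 and 76.0 CPM in KO, against 65.1 and 48.1 CPM in WT. KO replicate 1 was the highest library for both, and only Col4a1 overlapped between groups. Col4a2 rose against WT replicate 2 (1.04, SE 0.21, adjusted p 0.00174) and WT replicate 1 (0.58, SE 0.21, adjusted p 0.0283). Col4a1 rose against WT replicate 2 (0.88, SE 0.19, adjusted p 0.00273) and was not called against WT replicate 1 (0.24, SE 0.19, adjusted p 0.279). DESeq2 made none of these calls on Col4a1 and Col4a2. Each gene overlaps a gene on the opposite strand, Gm15418 (835 and 713 reads in KO, 310 and 576 reads in WT) and Gm15419 (238 and 184 reads in KO, 45 and 82 reads in WT). Whether counting used the strand is not stated, so reads of these partners cannot be told apart.

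The minor type IV chains, Col4a3 to Col4a6, build the networks of specialised basement membranes such as those of kidney glomeruli, and Col4a5 and Col4a6 also that of skin and other epithelia. Col4a5 (chrX:141475385-141689234) was at 1.61 and 1.5 CPM in KO, against 9.30 and 5.29 CPM in WT. Both KO libraries were far below both WT libraries. It fell by 1.76 on the log2 scale (SE 0.27, adjusted p 0.000235) against WT replicate 2 and by 2.59 (SE 0.29, adjusted p 3.40e-06) against WT replicate 1, and over the 4 libraries the change was -2.21 (SE 0.42, adjusted p 0.0760). Col4a6, which starts 1308 bases from Col4a5 on the other strand, was at 2.16 and 1.93 CPM in KO, against 5.55 and 2.34 CPM in WT. It fell against WT replicate 1 (-1.46, SE 0.32, adjusted p 0.00130), a call lost with library totals alone, and was not called against WT replicate 2 (-0.19, SE 0.32). Col4a3 and Col4a4, a pair with 71 bases between their starts, were between 0.956 and 1.43 CPM in KO and between 1.57 and 2.78 CPM in WT. Col4a4 fell against WT replicate 1 (-1.03, SE 0.42, adjusted p 0.0460), a change of 0.31 with library totals alone.

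Type VI collagen forms beaded filaments around cells, built from the alpha-1 and alpha-2 chains with one of several longer chains. Col6a1 was at 47.7 and 36.4 CPM in KO, against 28.7 and 23.4 CPM in WT. It rose against WT replicate 2 (0.85, SE 0.16, adjusted p 0.000912) and WT replicate 1 (0.53, SE 0.17, adjusted p 0.0142). Col6a3, the usual long chain, was at 30.2 and 19.1 CPM in KO, against 11.2 and 10.1 CPM in WT, and rose by 1.28 (SE 0.24, adjusted p 0.000848) and 1.11 (SE 0.26, adjusted p 0.00235) against WT replicates 2 and 1. For Col6a1 and Col6a3 the groups did not overlap. With all 4 libraries the changes were 0.69 (SE 0.25, adjusted p 0.188) for Col6a1 and 1.21 (SE 0.31, adjusted p 0.115) for Col6a3. Col6a2 was at 27.0 and 17.3 CPM in KO, against 28.9 and 17.3 CPM in WT, with the groups overlapping and changes of 0.35 (SE 0.22) and -0.41 (SE 0.22) that were not called.

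The alternative long chains Col6a4, Col6a5 and Col6a6 lie side by side on chromosome 9 and differed from one another. Col6a4 was at 27.2 and 24.4 CPM in KO, against 0.845 CPM in WT replicate 1 and 8.92 CPM in WT replicate 2. It rose against WT replicate 2 (1.53, SE 0.15, adjusted p 4.92e-06) and WT replicate 1 (4.90, SE 0.30, adjusted p 6.18e-09), and over the 4 libraries the change was 2.34 (adjusted p 0.247). Col6a5 was at 0.704 and 0.732 CPM in KO, against 0.966 and 6.49 CPM in WT, and fell against WT replicate 2 (-3.16, SE 0.30, adjusted p 3.83e-06), with a change of -0.44 (SE 0.68) against WT replicate 1. Neighbouring genes of 1 subfamily thus moved in opposite directions against WT replicate 2. Col6a6 was at 47.0 and 84.6 CPM in KO, against 69.2 and 52.2 CPM in WT. The KO libraries enclosed the WT libraries, and it was not called in any of the 3 comparisons.

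Col7a1 and Col17a1 encode proteins of the junction between stratified epithelium and the tissue below, and both were low in KO. Col17a1 encodes a membrane-spanning collagen of hemidesmosomes. Col17a1 (chr19:47646344-47692094) had 8 and 15 reads in KO, against 98 and 195 reads in WT, or 0.402 and 0.578 CPM in KO against 11.8 and 9.30 CPM in WT. It was the collagen that fell over the 4 libraries (-4.40, SE 0.39, adjusted p 0.0441). It also fell against WT replicate 2 (-4.20, SE 0.30, adjusted p 3.34e-07) and WT replicate 1 (-4.56, SE 0.33, adjusted p 4.85e-08). The 4-library call was lost with library totals alone (-3.73, adjusted p 0.0799). It was also lost without KO replicate 1 or 2, where the changes were -4.17 and -4.68. Under each of these settings every gene called in the main fit lost its call, so the loss is not particular to Col17a1.

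Col7a1 encodes the anchoring fibril. It had 43 and 49 reads in KO, against 915 and 311 reads in WT, or 2.16 and 1.89 CPM in KO against 110 and 14.8 CPM in WT. The WT libraries themselves differed widely. Col7a1 fell against WT replicate 2 (-2.87, SE 0.21, adjusted p 4.19e-07) and WT replicate 1 (-5.79, SE 0.14, adjusted p 2.09e-12), and over the 4 libraries the change was -4.94 (SE 1.16, adjusted p 0.0999). The 6 epithelial markers moved with these genes: Epcam, Krt8, Krt18, Krt5, Krt14 and Cdh1 summed to 9.0 and 13.3 CPM in KO, against 1615 and 648 CPM in WT. Krt8 had 0 reads in KO replicate 1 and 23 in KO replicate 2, against 2309 and 2217 reads in WT, and Krt14 had 2 and 4 reads in KO, against 702 and 678 reads in WT. The part of epithelium in the collagen values was not tested.

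The DNA upstream of these 2 genes is shown because both were far below WT in KO. The windows end before the start listed in the deposited table, and capitals mark the same motifs. Col17a1 is 198 bases (chr19:47692095-47692292, minus strand) and Col7a1 is 250 bases (chr9:108953336-108953585, plus strand), both from RefSeq on GRCm38.p6 and read 5′ to 3′ on the gene's strand.
Col17a1: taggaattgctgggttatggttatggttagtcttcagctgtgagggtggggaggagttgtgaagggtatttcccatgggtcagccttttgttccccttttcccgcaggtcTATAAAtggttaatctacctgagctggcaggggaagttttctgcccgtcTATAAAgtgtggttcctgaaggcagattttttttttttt
Col7a1: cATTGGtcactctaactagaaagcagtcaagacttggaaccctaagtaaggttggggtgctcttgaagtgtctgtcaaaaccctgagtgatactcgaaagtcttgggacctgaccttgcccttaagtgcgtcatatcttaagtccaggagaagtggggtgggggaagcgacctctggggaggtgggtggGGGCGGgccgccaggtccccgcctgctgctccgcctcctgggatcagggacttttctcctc
The Col17a1 window holds 2 TATA boxes, and the Col7a1 window holds 1 CCAAT box, on the other strand, and 1 GC box. As printed, the 2 windows share none of these motifs. The 250-base RefSeq window of Col17a1, which is the one counted among the 38, also holds 1 CCAAT box in the part not printed.

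The fibril-associated collagens (FACIT) sit on the surface of fibrils and included genes called higher and genes called lower. Col20a1 was at 4.68 and 5.89 CPM in KO, against 16.2 and 26.7 CPM in WT, with no overlap. It fell against WT replicate 2 (-2.32, SE 0.16, adjusted p 2.60e-07) and WT replicate 1 (-1.62, SE 0.21, adjusted p 1.59e-05), where with library totals alone the change was no longer called. With all 4 libraries the change was -2.02 (SE 0.36, adjusted p 0.0704). Col14a1, found on fibrils of dense connective tissue, was at 8.80 and 7.09 CPM in KO, against 13 and 14.3 CPM in WT. It fell against WT replicate 2 (-0.85, SE 0.18, adjusted p 0.00200) and WT replicate 1 (-0.74, SE 0.21, adjusted p 0.00723), and in the second comparison the change was 0.60 with library totals alone. Col12a1, another fibril-surface collagen, was at 19.4 and 12.1 CPM in KO, against 3.02 and 10.8 CPM in WT. It rose against WT replicate 1 (2.35, SE 0.36, adjusted p 6.53e-05) and was not called against WT replicate 2 (0.54, SE 0.24, adjusted p 0.0878). Col16a1 and Col19a1 fell against WT replicate 1 (-0.68 and -1.73) and were not called against WT replicate 2 (0.40 and 0.32), and with library totals alone Col16a1 was at 0.66 and Col19a1 was not called. Col22a1 and the type IX chains Col9a1, Col9a2 and Col9a3 were not called wherever tested; Col9a2 had 4 and 8 reads in KO, against 3 and 14 reads in WT.

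The multiplexins Col15a1 and Col18a1 are basement membrane zone collagens whose ends can be cut off as endostatin-type fragments. Col18a1 was at 26.8 and 25.7 CPM in KO, against 73.7 and 14.0 CPM in WT. The KO pair lay between the WT libraries, so Col18a1 rose against WT replicate 2 (0.91, SE 0.13, adjusted p 0.000146) and fell against WT replicate 1 (-1.5, SE 0.11, adjusted p 5.67e-08), the second of which was not called with library totals alone. It overlaps Slc19a1 on the other strand, which had 475 and 611 reads in KO and 418 and 354 reads in WT. Col15a1 was at 22.6 and 14.9 CPM in KO, against 37.6 and 23.0 CPM in WT, and fell against WT replicate 1 (-1.03, SE 0.20, adjusted p 0.000509), a change of 0.31 with library totals alone. It was not called against WT replicate 2 (-0.30, SE 0.20).

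Among the other transmembrane collagens, Col13a1, found at cell adhesion sites and the neuromuscular junction, was at 1.41 and 1.23 CPM in KO, against 4.83 and 2.0 CPM in WT. It fell against WT replicate 1 (-1.89, SE 0.36, adjusted p 0.000456), a call lost with library totals alone, and was not called against WT replicate 2 (-0.60, SE 0.36). Col23a1 was at 9.15 and 9.09 CPM in KO, against 8.57 and 7.97 CPM in WT, and Col25a1 was between 2.36 and 3.0 CPM in the 4 libraries; neither was called in any comparison. The short-chain collagens Col8a1 and Col8a2 were at most 1.71 CPM in KO and 2.29 CPM in WT and were not called. Col28a1 fell against WT replicate 1 (-1.10, SE 0.40), a change of 0.24 with library totals alone. Col2a1 and Col10a1, the collagens of cartilage, had 6 and 8 reads and 3 and 1 reads in KO, against 1 and 2 reads and 0 and 11 reads in WT.

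**Figure D2:**
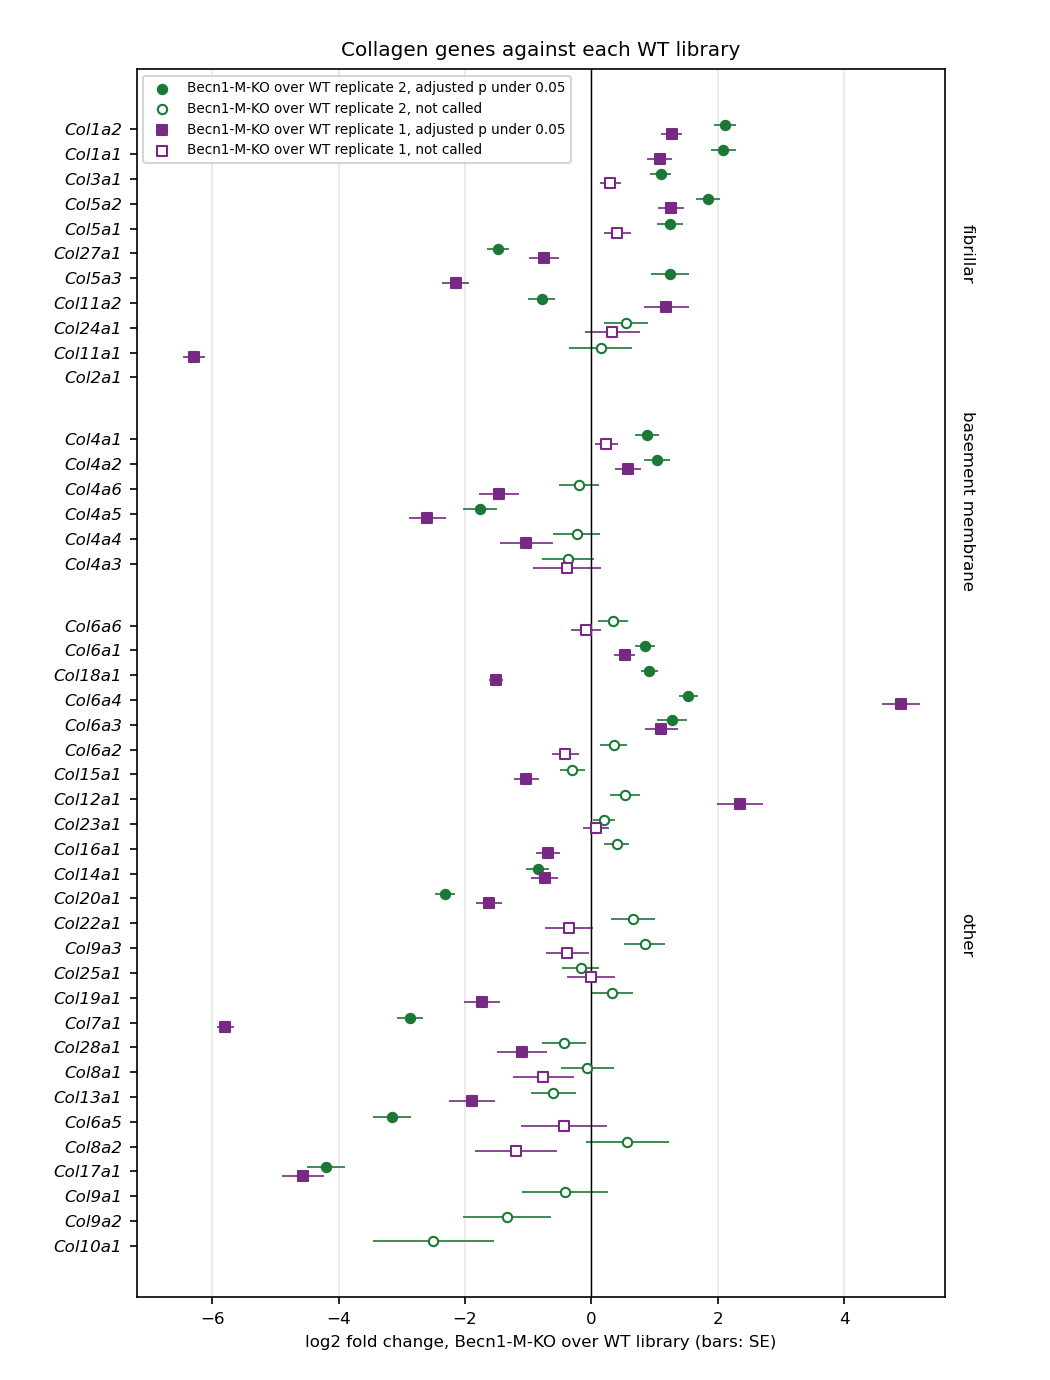
Log2 fold change of KO over each WT library for each collagen gene (bars: SE), with filled symbols for an adjusted p under 0.05 and open ones for genes not called; genes with no symbol were not tested. Col1a1, Col1a2, Col5a2, Col4a2, Col6a1, Col6a3 and Col6a4 are called higher against both WT libraries, and Col27a1, Col4a5, Col14a1, Col20a1, Col7a1 and Col17a1 lower against both. The 2 sets of values share the KO libraries, and the bars take the spread of the KO pair. How many of all genes were called the same way against both was not counted.

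Shares within the collagen reads do not depend on the scaling between libraries. Fibrillar genes made up 41.3% (95% Wilson interval 40.6 to 42.0) and 38.9% (38.2 to 39.6) of collagen reads in KO, against 29.7% (28.7 to 30.7) and 24.1% (23.3 to 24.95) in WT. Basement membrane genes made up 27.6% and 23.2% in KO, against 19.9% and 24.1% in WT. The other collagens made up 31.1% and 37.8% in KO, against 50.4% and 51.8% in WT. The fibrillar share was thus higher and the share of the others lower in both KO libraries, whereas the basement membrane shares overlapped. Single genes weigh heavily in these shares. Col1a2 held 17.75% and 17% of collagen reads in KO, against 6.72% and 6.82% in WT. Among the others, Col7a1 held 0.224% and 0.251% in KO, against 12.1% in WT replicate 1 and 2.93% in WT replicate 2. The fibrillar gene Col11a1 went the other way from Col1a2, at 7.63% in WT replicate 1. With 2 samples against 2, an exact permutation test cannot give a two-sided p below 0.333, so none is given.

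**Figure D3:**
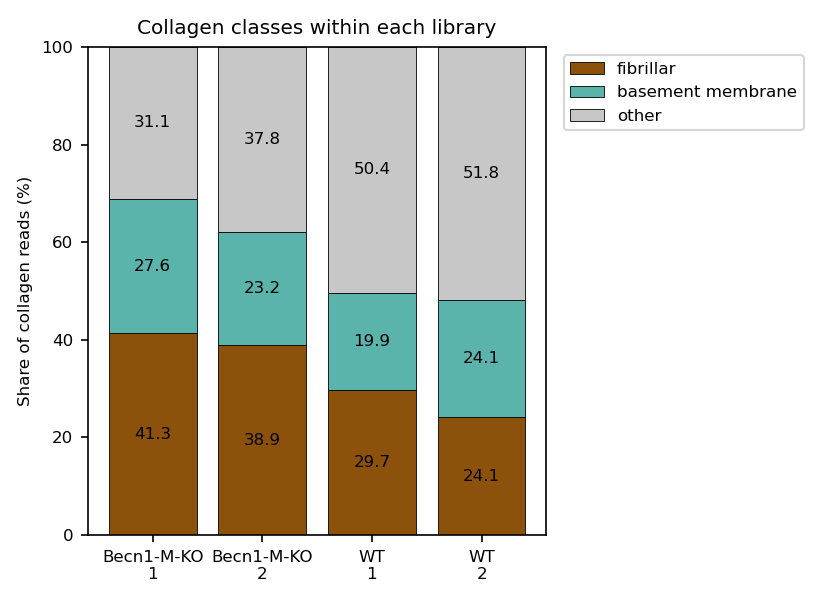
Share of the reads of all collagen genes (%) held by fibrillar, basement membrane and other collagens in each library, with the KO libraries on the left. The fibrillar share is 41.3% and 38.9% in KO, against 29.7% and 24.1% in WT.

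Ratios between collagens within a library are also free of scaling. For the 2 chains of type I collagen, reads of Col1a2 over Col1a1 were 2.03 and 2.22 in KO, against 1.86 and 2.08 in WT, with overlapping groups. Reads of Col3a1 over Col1a1 were 0.867 and 0.924 in KO, against 1.53 and 1.78 in WT. The exact 95% counting intervals reached 0.995 at most in KO and 1.31 at least in WT, so type III was lower relative to type I in both KO libraries. Reads of Col1a2 over Col4a1, type I set against type IV, were 1.23 and 1.38 in KO, against 0.630 and 0.546 in WT. Reads of Col5a1 over Col5a2 were 0.629 and 0.612 in KO, against 1.12 and 0.943 in WT. Reads of Col6a1 over Col6a2 were 1.77 and 2.11 in KO, against 0.996 and 1.35 in WT. In these last 3 ratios, too, the groups did not overlap. The ratios use genes already described above, and how often other pairs of genes separate the groups was not counted. Ratios of reads are not ratios of molecules, since genes differ in length.

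Per kilobase of annotated exon, Col4a1 led the collagens in every library, at 18.7 and 12.5 CPM per kb in KO and 13 and 8.48 in WT. In KO the next were Col4a2 (18.3 and 11.5) and Col1a2 (13.8 and 10.3) in both libraries. Col1a1 (12.8 and 8.79) and Col6a1 (10.9 and 8.30) followed, but in KO replicate 2 Col6a6 lay above both (5.13 and 9.23). In WT replicate 1 the second was Col7a1 at 10.7 CPM per kb, and Col1a1 and Col1a2 were at 5.02 and 4.93. In WT replicate 2 the second was Col4a2 at 7.26, and Col1a1 and Col1a2 were at 2.54 and 2.78. Exon length here counts every base in an exon of any annotated transcript, 12426 bases for Col1a2 and 7464 for Col4a1. It can exceed the length of the mature mRNA, so the order of genes depends on it. Other lengths were not tried. The deposited gene length equals the whole gene span for all 38087 genes, so intronic reads may be included and these levels are approximate.

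Genes that make collagen included some higher and some lower in KO. Of 26 genes of collagen synthesis and crosslinking, 12 rose and 6 fell against WT replicate 2, beside 20.9% and 22.8% of all genes. Against WT replicate 1, 7 rose and 8 fell, beside 32.3% and 32.5%, or 19 and 2 with library totals alone, beside 70.8% and 12.2%. Counts against WT replicate 1 thus lie near or below the background in both directions. Over the 4 libraries, edgeR called 0 of 63 genes of collagen synthesis, basement membrane, fibril surface and collagen receptors. Among all genes it called 1.04% higher and 2.18% lower. At an unadjusted p under 0.05, 12 of the 63 were higher and 16 lower, beside 26.9% of all genes in either direction. DESeq2 called 7 higher and 13 lower, beside 6.4% and 11.7% of all genes. Limma-voom called 1 higher and 1 lower, beside 1.21% and 1.95% of all genes. P4ha1, a subunit of the prolyl hydroxylase that stabilises the helix, was at 33.5 and 32.1 CPM in KO, against 7.37 and 18.8 CPM in WT, and rose against both WT libraries. Its partner subunit P4hb, also a general protein disulfide isomerase, was at 256 and 232 CPM in KO, against 2122 and 519 CPM in WT. P4hb fell by 1.09 and 3.14 on the log2 scale against WT replicates 2 and 1, and fell with library totals alone too. Lepre1, the prolyl 3-hydroxylase also called P3h1, was at 16.4 and 13.2 CPM in KO, against 1.69 and 4.10 CPM in WT, and rose against both. Loxl3, a lysyl oxidase relative that crosslinks collagen, was at 35.0 and 36.6 CPM in KO, against 9.06 and 15.4 CPM in WT, and rose against both. Lox itself, the main crosslinking enzyme, went the other way, at 3.37 and 2.0 CPM in KO, against 9.18 and 14.9 CPM in WT. Lox fell against both, although with library totals alone the change against WT replicate 1 was -0.48 and not called. For none of these 5 genes did the groups overlap. Of all genes tested, 34.3% lay above both WT libraries and 33.3% below both.

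Lamb3, a laminin chain of epithelium, was lower in KO. Of 15 basement membrane genes, 3 rose and 8 fell against WT replicate 2, beside 20.9% and 22.8% of all genes, with a median of -0.68. Set against WT replicate 1, 2 rose and 8 fell, beside 32.3% and 32.5%, with a median of -1.33. With library totals alone the splits were 7 higher and 7 lower against WT replicate 2, beside 26.9% and 19.3% of all genes, and 7 higher and 6 lower against WT replicate 1, beside 70.8% and 12.2%. Those that fell against both WT libraries include Lamb3 and Lama3, a partner chain, but Lama3 had a change of 0.01 against WT replicate 1 with library totals alone. Lamb3 was at 3.57 and 3.74 CPM in KO, against 73.2 and 16.9 CPM in WT. The groups did not overlap for Lamb3, and WT replicate 1 was the highest library. Lamc1, the chain shared by most laminins, rose against both WT libraries and was at 56.7 and 47.1 CPM in KO, against 33.9 and 34.3 CPM in WT.

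Of the 13 fibril-associated proteoglycans and glycoproteins, 7 were called higher and 4 lower against WT replicate 2, beside 20.9% and 22.8% of all genes. There were 8 called higher and 4 lower against WT replicate 1, beside 32.3% and 32.5%, so the lower calls in that comparison lie at the background. Bgn, the small proteoglycan biglycan, was at 333 and 262 CPM in KO, against 69.9 and 70.5 CPM in WT, and rose by 2.08 and 2.07 against replicates 2 and 1. Fn1, fibronectin, was at 149 and 88.5 CPM in KO, against 10.8 and 34.4 CPM in WT. Both lay well above WT. Lum, the keratan sulphate proteoglycan lumican, was at 1.66 and 1.85 CPM in KO, against 22.1 and 11.5 CPM in WT. Postn, periostin, was at 8.90 and 4.70 CPM in KO, against 55.7 and 46.1 CPM in WT. Lum and Postn fell against both WT libraries.

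The markers of cells that make collagen differed between the WT libraries. The 7 fibroblast and reticular cell markers summed to 319 and 299 CPM in KO, against 51.8 CPM in WT replicate 1 and 326 CPM in WT replicate 2. The 6 smooth muscle and pericyte markers summed to 212 and 178 CPM in KO, against 743 and 554 CPM in WT. That list went both ways: Acta2, Tagln, Myh11 and Cnn1 fell against both WT libraries, whereas Rgs5 and Des, which pericytes express, rose against both. Rgs5 was at 97.9 and 95.6 CPM in KO, against 26.1 and 41.8 CPM in WT, and Des at 43.9 and 32.9 CPM in KO, against 4.23 and 24.3 CPM in WT. The 5 endothelial markers summed to 223 and 178 CPM in KO, against 79.1 and 250 CPM in WT. The fibroblast sum of KO was thus near that of WT replicate 2 and above that of WT replicate 1. Of its 7 genes, 4 rose and 2 fell against WT replicate 2, beside 20.9% and 22.8% of all genes, and 6 rose and 0 fell against WT replicate 1, beside 32.3% and 32.5%; edgeR called 0 over the 4 libraries. The 2 that fell against WT replicate 2 were Thy1, which T cells also express (60.2 and 60.1 CPM in KO, against 7.0 and 129 CPM in WT), and Ccl21a, a chemokine of reticular cells (61.6 and 81.2 CPM in KO, against 2.17 and 131 CPM in WT). Pdgfra, a receptor of fibroblasts among the 4 that rose, had 968 and 1102 reads in KO, against 197 and 309 reads in WT. Their part in the collagen values was not tested.

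**Figure D4:**
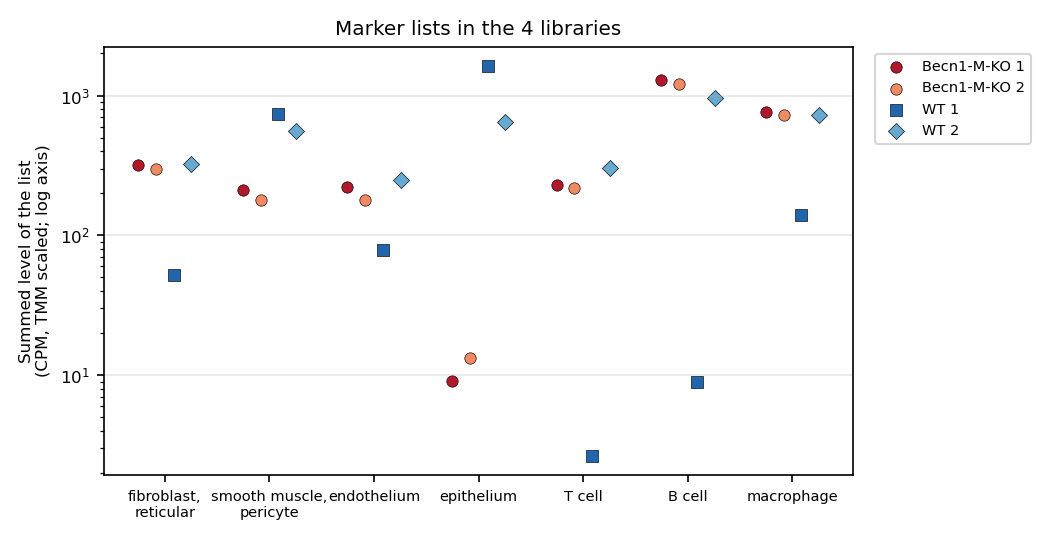
Summed level (CPM, TMM scaled, log axis) of 7 marker lists in each library, KO libraries on the left of each group. The epithelium list is at 9.0 and 13.3 CPM in KO, against 1615 and 648 CPM in WT, and WT replicate 1 stands apart at 8.94 CPM for B cells.

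The authors deposited log2 values per gene and a table of comparisons with unadjusted p-values. The authors' deposited table lists 12 of the 43 collagens, 4 higher and 8 lower in KO. Of all 38087 genes, the authors' deposited table lists 5511, with 2482 higher and 3029 lower. The authors also deposited a list of 86 genes up and a list of 71 genes down in KO, and neither holds a collagen. The 4 higher in the authors' deposited table are Col22a1 (2.82), Col5a2 (1.75), Col1a2 (1.69) and Col6a3 (1.28), as log2 fold changes. The 8 lower in the authors' deposited table include Col17a1 (-6.44), Col4a5 (-4.49), Col13a1 (-4.11) and Col4a6 (-4.07). Of 40 collagens with a fold change from counts, 24 were within 0.5 of the difference of the authors' log2 values and 34 had the same sign. The 7 that differed by more than 2 were Col4a5, Col4a6, Col6a4, Col13a1, Col17a1, Col22a1 and Col28a1. The count-based changes for Col22a1 and Col4a6 over the 4 libraries were 0.09 (SE 0.52) and -0.92 (SE 0.54), neither called. Exons cover a median of 3.27% of the gene span in those 7 and 7.41% over the 40. How the authors' values were made is not stated, and the cause of the difference was not tested.

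**Figure D5:**
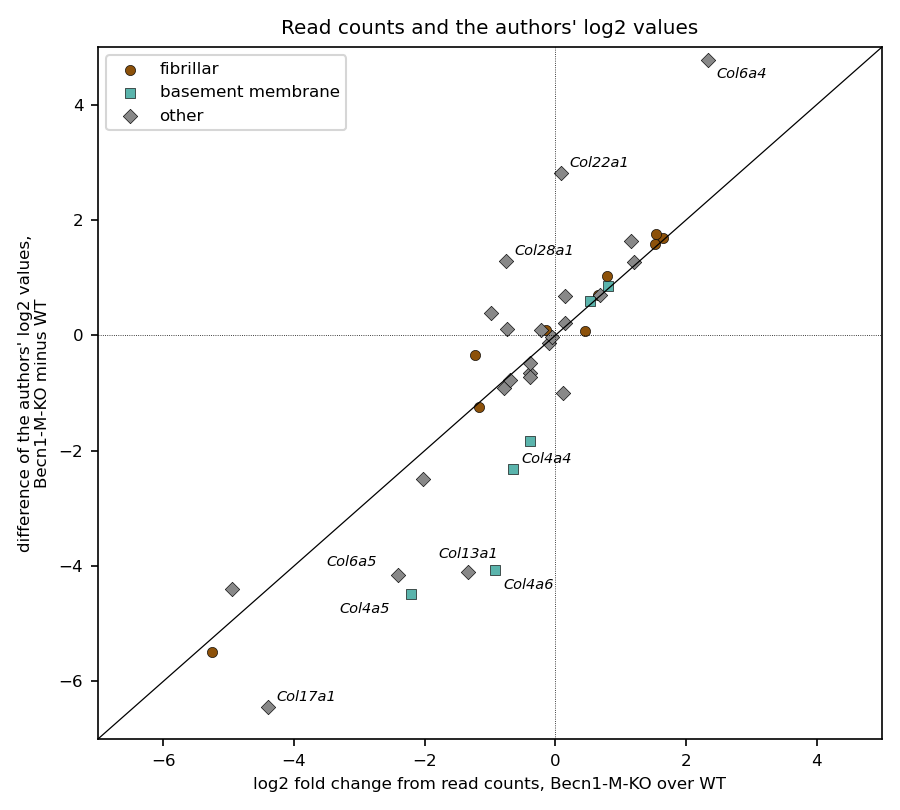
Log2 fold change of KO over WT from the read counts (4 libraries, x axis) and the difference of the authors' log2 values (KO mean minus WT mean, y axis) for 40 collagen genes, with the line of equality. Genes more than 1.5 apart are named; Col1a1, Col1a2 and Col3a1 lie on the line.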

How the data were processed

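Whole-number read counts per gene, not normalized and with coordinates on mm10, were deposited by the authors, per the file headers. Ribosomal RNA was removed before Ion Torrent sequencing, per the labels' protocols. DESeq2 1.62 is named in the submitters' processing notes; the aligner, the counter and the use of strand are not stated. The authors also deposited log2 values, centred on each gene's median (0 in all 38087 genes), and a comparison table holding log2 and linear fold changes and unadjusted p-values, per the file headers. A further 8 columns of per-sample values were not used.

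Members and gene lists were chosen with earlier results of these data known. Every member that passes the count filter could be named; further genes were named after their values were seen. The count test was edgeR 4.0.16 (R 4.3.3; quasi-likelihood, TMM, filterByExpr with a minimum of 10 and a total of 15, threshold 0.05) over all genes. The SE is the log2 fold change over the root of the F statistic. Alternatives were DESeq2 1.42.0, limma-voom 3.58.1, other scalings and filters, a replicate block and each library left out. In simulated counts for the 4 libraries (20695 genes, trended spread) the test found 0 of 67 genes with a 2-fold change, 17 of 67 with a 4-fold change and 64 of 66 with a 16-fold change, and called 1 unchanged gene. With gene-wise spread it found 0 of 67 genes with a 2-fold change and 1 of 67 with a 4-fold change. It found 29 of 66 genes with a 16-fold change and called 5 unchanged genes. Exon lengths came from GENCODE M21, as all bases in an exon of any transcript of the gene.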

Additional observations from a re-analysis of the deposited data

How the results depend on the processing

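Over the 4 libraries, the count of 1 called collagen was 0 with library totals alone and with the replicate block, 3 with no count filter, and 7 with DESeq2; leaving out 1 library gave 0 to 25, with 20 without WT replicate 1, 25 without WT replicate 2 and 0 without either KO library. With the block, Col17a1 had a change of -4.40 and an adjusted p of 0.0633. Library totals alone and the block each left 0 of all 20695 genes called in either direction. Leaving out either KO library also took the call from every gene called in the main fit. Nothing shows that replicate numbers pair samples (the deviations of same-numbered libraries correlated at -0.108 across genes); pairing them crosswise, chosen after seeing the data, gave 1 called collagen, with 202 genes higher and 643 lower in all. The 0 called genes of the related lists became 7 with no count filter, 20 with DESeq2, 2 with limma-voom, 1 with crossed pairs, and 0 to 43 with 1 library left out (43 without WT replicate 1, 42 without WT replicate 2). Against WT replicate 1, DESeq2 called 16 of the 25 collagens. Library totals alone turned the sign of 6 collagens called lower there, to 0.60 for Col14a1, 0.31 for Col15a1, 0.66 for Col16a1, 0.58 for Col27a1, 0.24 for Col28a1 and 0.31 for Col4a4. These turns follow from the scaling, since the reads are the same. Which scaling is nearer the true levels was not tested. Depth limits the low genes: Col17a1 rests on 8 and 15 reads in KO, and a group reduced to 1 sample has no measured spread of its own.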

Other observations

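Of 10 collagen receptors, 2 rose and 1 fell in KO against WT replicate 2, beside 20.9% and 22.8% of all genes, and 4 rose and 1 fell against WT replicate 1, beside 32.3% and 32.5%, so the rises lie near the background; Gp6, among those 4, had 0 reads in WT replicate 1. With library totals alone, 9 rose and 1 fell against WT replicate 1, beside 70.8% and 12.2% of all genes, and 4 rose and 1 fell against WT replicate 2, beside 26.9% and 19.3%. Lair1, an inhibitory collagen receptor of leukocytes, was at 32.7 and 36.9 CPM in KO, against 4.95 and 9.87 CPM in WT, and rose by 1.82 and 2.80 on the log2 scale against WT replicates 2 and 1. Ddr2, a receptor kinase of mesenchymal cells, was at 26.1 and 25.4 CPM in KO, against 5.80 and 13.1 CPM in WT, and rose by 0.98 and 2.13. Its relative Ddr1, typical of epithelium, was at 19.2 and 15.6 CPM in KO, against 159 and 40.9 CPM in WT, and fell by 1.23 and 3.21. The 2 discoidin domain receptors thus moved in opposite directions against each WT library, with library totals alone too. Over the 4 libraries none of these 3 was called by edgeR (adjusted p 0.0722 for Lair1, 0.153 for Ddr2 and 0.138 for Ddr1).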
